A study of Mus musculus with 6 samples.

Results

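Isolated distal intergenic regions are the stretches of called H3K9me3 signal that the study annotated as distal intergenic on chromosomes 1 to 19 and that had no other called region, of any class, within 2000 bp of either edge. They numbered 25270 of the 58511 regions in the union of the 3 deposited tables (43.2%). Both F-EPC libraries held reads on chromosome 1, on chromosomes 10 to 15 and on chromosome 16 for part of its length. This stretch is called the F-EPC part here, it contained 12433 of the isolated regions, and every comparison with F-EPC was made inside it. For comparison, 5723 autosomal distal intergenic regions had a neighbour within 2000 bp and are called clustered, and 11788 autosomal regions were promoters.

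The study mapped H3K9me3 by CUT&Tag, in which an antibody guides a transposase that cuts and tags nearby DNA, in endothelial progenitor cells (EPCs) expanded in EGM-2 medium from bone marrow. The cells were lineage-depleted, sorted on magnetic beads for Sca-1 and CD31, and came from C57BL/6J mice of 8 weeks of age. M-EPC came from males, F-EPC from intact females and OVX-EPC from females whose ovaries were removed at about 35 days of age, with 2 libraries in each group. The libraries of a group came from duplicate frozen vials, so the p-values may measure technical spread rather than spread between animals. The files hold no expression values, and the cell type was not checked here. No library of an IgG or input control was analysed here.

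H3K9me3, trimethylated lysine 9 of histone H3, is the mark of constitutive heterochromatin. Away from genes it is written by SETDB1 at repeats that KRAB zinc finger proteins and TRIM28 recognise, and by SUV39H enzymes at the satellite repeats around centromeres, and HP1 proteins bind it. Gene-poor chromosome segments, which often lie at the nuclear periphery, carry broad low levels of heterochromatin marks, while most active promoters lack H3K9me3.

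Sequences of 6 isolated regions show the range of DNA that the group holds. The first set contains 3 of the 6 regions with the highest mean normalized signal over M-EPC and OVX-EPC. The second set contains 3 regions that were lower in OVX-EPC than in M-EPC. Each line gives the 300 central bases of the 400-bp region from GRCm38 (mm10), plus strand, named by the gene that the study assigned. Capitals mark bases lying in a 25-base word, the length of the study's reads, that occurs more than once in the genome on either strand.
Gm5614, chr9:35305307-35305606: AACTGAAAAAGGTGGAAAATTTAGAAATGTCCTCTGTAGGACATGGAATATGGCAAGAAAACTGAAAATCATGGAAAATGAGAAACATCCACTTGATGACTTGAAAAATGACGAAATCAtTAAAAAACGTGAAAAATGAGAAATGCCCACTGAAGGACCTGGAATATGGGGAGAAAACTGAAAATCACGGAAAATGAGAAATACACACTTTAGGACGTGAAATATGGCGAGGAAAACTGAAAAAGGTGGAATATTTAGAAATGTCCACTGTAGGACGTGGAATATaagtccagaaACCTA
Gm11668, chr11:109011775-109012074: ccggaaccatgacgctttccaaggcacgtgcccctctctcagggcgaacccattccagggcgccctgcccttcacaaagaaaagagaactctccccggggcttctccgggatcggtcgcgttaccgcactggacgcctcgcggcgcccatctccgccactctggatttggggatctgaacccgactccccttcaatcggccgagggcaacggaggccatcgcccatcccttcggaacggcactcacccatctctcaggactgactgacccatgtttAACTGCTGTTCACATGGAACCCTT
Zfp825, chr13:74529185-74529484: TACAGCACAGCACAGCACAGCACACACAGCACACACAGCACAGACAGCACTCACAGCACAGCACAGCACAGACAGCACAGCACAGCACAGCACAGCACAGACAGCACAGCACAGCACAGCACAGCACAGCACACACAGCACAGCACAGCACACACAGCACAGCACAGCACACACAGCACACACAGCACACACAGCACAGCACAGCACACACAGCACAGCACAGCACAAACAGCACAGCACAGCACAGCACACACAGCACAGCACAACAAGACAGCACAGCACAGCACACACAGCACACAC
Gm6226, chr7:58882331-58882630: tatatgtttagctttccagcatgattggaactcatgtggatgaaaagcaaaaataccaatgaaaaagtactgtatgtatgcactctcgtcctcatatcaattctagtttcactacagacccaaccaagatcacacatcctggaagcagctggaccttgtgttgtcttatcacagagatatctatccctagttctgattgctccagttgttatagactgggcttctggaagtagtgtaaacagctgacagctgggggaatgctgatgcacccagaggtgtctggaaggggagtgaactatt
Mex3b, chr7:82873374-82873673: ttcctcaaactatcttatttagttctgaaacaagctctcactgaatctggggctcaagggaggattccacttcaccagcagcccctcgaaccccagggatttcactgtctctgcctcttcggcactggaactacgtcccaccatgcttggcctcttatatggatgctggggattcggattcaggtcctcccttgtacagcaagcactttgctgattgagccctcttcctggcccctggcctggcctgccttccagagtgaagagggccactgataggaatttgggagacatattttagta
Ccnd1, chr7:144991839-144992138: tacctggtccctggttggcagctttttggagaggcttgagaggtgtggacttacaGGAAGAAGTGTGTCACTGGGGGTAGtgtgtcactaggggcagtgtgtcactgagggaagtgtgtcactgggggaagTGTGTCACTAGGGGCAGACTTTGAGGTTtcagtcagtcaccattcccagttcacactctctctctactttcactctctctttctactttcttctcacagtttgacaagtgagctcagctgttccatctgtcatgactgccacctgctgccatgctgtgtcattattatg

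Of these stretches, the Gm5614 region was made of repeated words in 289 of its 300 bases, and its 400 bases matched themselves best at a shift of 234 bases, with 68.1% of 166 base pairs identical. The mouse major satellite, the pericentromeric repeat on which SUV39H-dependent H3K9me3 is best known, has a unit of 234 bases, but the region was not compared with a satellite reference here. The Zfp825 region was a tandem run of short CA-rich units in all 300 bases, with single words found up to 2000 times. The Gm11668 region was a GC-rich sequence with 24 bases in repeated words. Copies that the genome assembly lacks do not enter these counts, and this region was not compared with a repeat reference either. Of the regions lower in OVX-EPC, Gm6226 and Mex3b had 0 such bases in the stretch shown and Ccnd1 had 53.

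The isolated regions were short and lay far from each other and from genes. Nearly all were 400 bp wide, the median distance to the next region was 13054.5 bp, and the median distance to the nearest GENCODE transcription start site (TSS) was 25.5 kb (25477.5 bp). The 5% closest to a TSS lay within 2903 bp of it, although the study classed them as distal intergenic. The annotation behind that class is not given in the sources used here. Their median GC content was 47.5%, above the autosomal mean of 41.9%, and their median ratio of observed to expected CpG was 0.136. Promoter regions had medians of 56.8% GC and 0.55 for the CpG ratio. Soft-masked bases, which mark interspersed and simple repeats in the genome sequence, made up a median of 35.8% of an isolated region, compared with 33.5% of the autosomes, 37.5% of clustered regions and 5.75% of promoters. In the median isolated region 85.9% of the 25-base words were found at a single place in the genome, and 4218 of the 25270 regions (16.7%) had fewer than 50% of such words. Clustered regions were close to isolated regions in composition, with a median TSS distance of 19936 bp and 80.6% single-copy words.

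More isolated regions were called where both F-EPC libraries had reads. The F-EPC part held 13.1 isolated regions per Mb and the rest of the autosomes 8.48 per Mb. Clustered regions showed the same pattern, with 3.15 and 1.81 per Mb, and promoters less of it, with 5.12 and 4.58 per Mb. The number of regions called thus moved with the libraries that had reads, and its part in the group differences was not tested. For OVX-EPC against M-EPC, the comparison of regions far from and near a TSS is therefore also given for the autosomes outside the F-EPC part. The shares, medians and counts of calls for that pair include the F-EPC part.

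The signal in single isolated regions was low. In the F-EPC part the mean was 5.40 and 6.86 reads per region in the M-EPC libraries, 9.37 and 7.96 (F-EPC), and 6.54 and 6.88 (OVX-EPC). The median was 4 to 8 reads, and between 1.11% (F-EPC replicate 1) and 6.88% (M-EPC replicate 1) of the isolated regions had 0 reads in a library. F-EPC replicate 1 had the most reads there, 288353 over all classes, and M-EPC replicate 1 the fewest, 200296. The replicates of a group had a Pearson correlation over isolated regions, on log2(reads + 1), of 0.574 (M-EPC), 0.511 (F-EPC) and 0.551 (OVX-EPC), compared with 0.741 to 0.773 over promoters, which hold more reads. Over isolated regions with at least 10 reads in a pair of replicates, the squared deviation was 1.34 to 1.39 times that of sampling noise, so the replicates of each group differed by more than sampling noise.

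Isolated regions carried fewer reads than clustered intergenic regions and promoters in each of the 6 libraries. Over 400-bp regions of the F-EPC part, the log2 ratio of mean reads per isolated region to mean reads per clustered region was -0.69 and -0.60 (M-EPC), -0.51 and -0.54 (F-EPC), and -0.44 and -0.62 (OVX-EPC), with a mean of -0.57 ± 0.0863 (SD, n = 6), a level 0.675 times that of clustered regions (two-sided exact sign-flip permutation over libraries, p = 0.0313, which 6 libraries cannot go below). Against promoters the ratio was -1.24 and -0.94 (M-EPC), -0.57 and -0.73 (F-EPC), and -0.77 and -0.77 (OVX-EPC), with a mean of -0.84 ± 0.228 (SD, n = 6) and the same exact p = 0.0313. The isolated regions came closer to the promoter level in all 4 libraries from females than in either library from males. The difference between those 4 and the M-EPC pair gave p = 0.133 in a two-sided exact permutation test, the smallest that 4 against 2 allows.

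**Figure D1:**
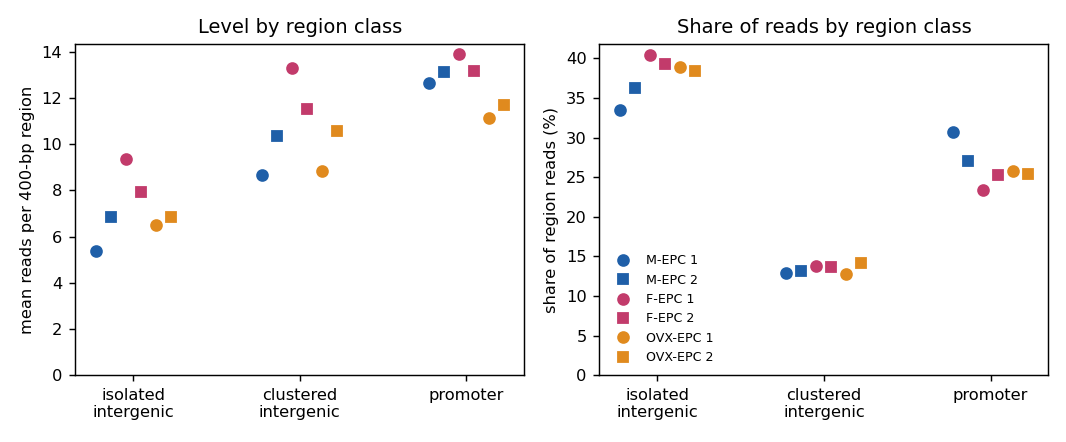
Mean reads per 400-bp region (left) and share of all region reads (right, %) for isolated intergenic, clustered intergenic and promoter regions in the F-EPC part. Each point is 1 library and shapes give the replicate number. Isolated regions had the lowest mean in every library, and their share was 33.5% and 36.3% in M-EPC against 38.3% to 40.4% in F-EPC and OVX-EPC.

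A larger share of the reads fell in isolated intergenic regions in F-EPC and OVX-EPC than in M-EPC. In the F-EPC part this share, over all autosomal regions, was 33.5% and 36.3% (M-EPC), 40.4% and 39.2% (F-EPC), and 38.9% and 38.3% (OVX-EPC). The groups M-EPC and F-EPC did not overlap, nor did M-EPC and OVX-EPC. M-EPC averaged 34.9% ± 1.94 and F-EPC 39.8% ± 0.835 (SD over 2 libraries), a difference of 4.93 percentage points (two-sided p = 0.3333 by exact permutation, which 2 against 2 cannot go below). Over all autosomes M-EPC averaged 33.1% ± 1.87 and OVX-EPC 37.0% ± 0.404 (SD over 2 libraries), a difference of 3.88 percentage points with the same exact p = 0.3333. The OVX-EPC share was 1.19 percentage points below that of F-EPC, with p = 0.3333 as well (exact permutation test). Within M-EPC the replicates differed by more than those of the other groups, and without M-EPC replicate 1 the difference for OVX-EPC was 2.55 percentage points. Counting error was small beside these values: the Wilson 95% interval for M-EPC replicate 1 in the F-EPC part ran from 33.3% to 33.7%. Such intervals cover counting error only, and reads from PCR are not independent molecules.

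Among isolated regions strong enough to be tested, the median change against M-EPC lay above that of other regions. The median log2 fold change for OVX-EPC against M-EPC was -0.02 in isolated regions and -0.22 in all other autosomal regions, a difference of 0.20. Between the replicates of M-EPC the same score came to -0.11, and between those of OVX-EPC to -0.01. For F-EPC against M-EPC the difference was 0.28, compared with 0.07 and -0.11 between the replicates of F-EPC and M-EPC. It was -0.05 when OVX-EPC was compared with F-EPC, within the 0.05 seen between F-EPC replicates. Where the medians lie relative to 0 depends on scaling: with TMM factors the isolated regions had medians of 0.15 in both comparisons with M-EPC and the others -0.06 (OVX-EPC) and -0.15 (F-EPC), which left differences of 0.21 and 0.30. With a stricter minimum of 30 in 2 or more libraries the first of these was -0.04 and the second 0.04, so the difference was seen with weaker regions included and not in these stronger ones.

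The isolated regions did not differ alike: those far from a TSS held relatively more reads in F-EPC and OVX-EPC, and those near a TSS relatively fewer. Members within 10 kb of a TSS (2809 in the F-EPC part) took 29.1% and 27.4% of the isolated regions' reads in M-EPC, 24.8% and 25.1% (F-EPC), and 25.3% and 25.6% (OVX-EPC). Members 10 to 50 kb away (5624) took 46.5% and 46.2% (M-EPC), 44.7% and 44.9% (F-EPC), and 45.0% and 44.6% (OVX-EPC). Members 50 to 200 kb away (3532) took 21.8% and 23.6% (M-EPC), 27.0% and 26.5% (F-EPC), and 26.4% and 26.5% (OVX-EPC). Members over 200 kb away (468) took 2.66% and 2.79% (M-EPC), 3.39% and 3.45% (F-EPC), and 3.32% and 3.37% (OVX-EPC). In every distance bin both M-EPC libraries lay on the same side of all 4 libraries from females, and the F-EPC and OVX-EPC values lay within 1 percentage point of each other.

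**Figure D2:**
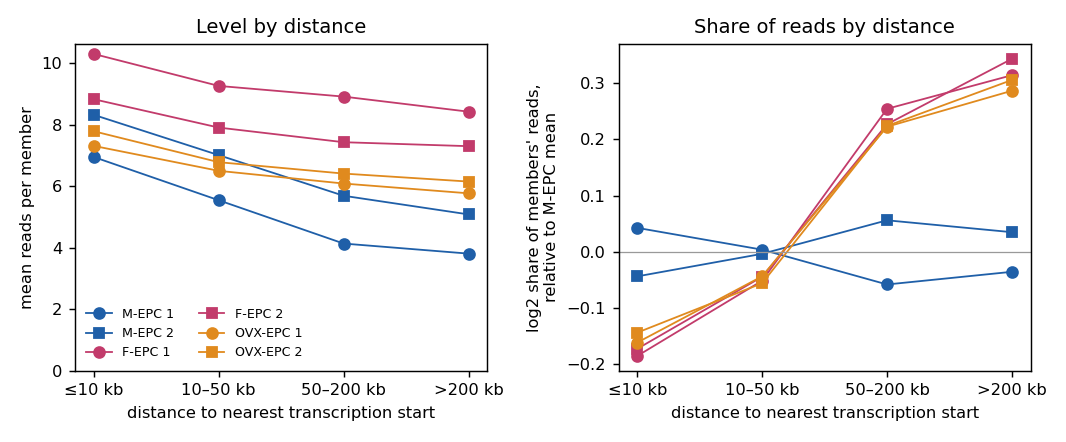
Isolated regions of the F-EPC part by distance to the nearest TSS. Left, mean reads per region; right, log2 of the share of a library's isolated-region reads relative to the M-EPC mean. Each line is 1 library. The mean fell with distance in all 6 libraries, and beyond 200 kb the share was 0.29 to 0.34 above the M-EPC mean in F-EPC and OVX-EPC.

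The level itself fell with distance in every library, most in M-EPC. From the nearest to the farthest bin the mean went from 6.95 to 3.81 reads per region in M-EPC replicate 1 and from 8.33 to 5.09 in replicate 2. It went from 10.3 to 8.43 and from 8.83 to 7.31 in the F-EPC libraries, and from 7.32 to 5.77 and from 7.79 to 6.16 in OVX-EPC. A score for this fall, the log2 ratio of mean reads in members over 50 kb (4000 regions) to mean reads in members within 10 kb, was chosen after these bins had been seen. It was -0.76 and -0.57 (M-EPC), -0.22 and -0.25 (F-EPC), and -0.27 and -0.29 (OVX-EPC). M-EPC averaged -0.66 ± 0.138, F-EPC -0.23 ± 0.0238 and OVX-EPC -0.28 ± 0.0100 (SD over 2 libraries), so F-EPC and OVX-EPC each differed from M-EPC by more than the replicates of any group differed. For the 4 libraries from females against M-EPC p was 0.133 by a two-sided exact permutation test, again the lowest value it can take.

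A difference of like size was found where F-EPC was not used in the comparison. F-EPC replicate 2 still held reads in 6445 of the 12837 isolated regions outside the F-EPC part. Whether those reads entered the region calls was not tested. On the autosomes outside the F-EPC part, with 3202 near and 3794 far members, the score was -0.81 and -0.60 (M-EPC) and -0.26 and -0.34 (OVX-EPC). Chromosome by chromosome, both OVX-EPC libraries lay above both M-EPC libraries on 12 of 12 chromosomes or parts of chromosomes outside the F-EPC part. Inside it the F-EPC and OVX-EPC libraries lay above both M-EPC libraries on 8 of 8. The chromosomes share libraries and are not replicates. On chromosome 11 the score was lowest in every library, with -1.33 and -1.15 (M-EPC), -0.68 and -0.76 (F-EPC) and -0.85 and -0.85 (OVX-EPC).

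The pattern was also seen within classes of sequence composition. Some classes were wide, as 67.6% of the isolated regions of the F-EPC part had 10 to 90% soft-masked bases. Composition was therefore not held fixed within a class. The libraries from females lay above both M-EPC libraries in 10 of 10 strata, which were quartiles of GC content, 3 classes of soft-masked share and 3 classes of single-copy words. In the lowest GC quartile the score was -0.71 and -0.45 (M-EPC) and -0.15 to -0.22 in the other libraries. In regions with over 95% single-copy words it was -0.61 and -0.45 (M-EPC), -0.11 and -0.18 (F-EPC), and -0.18 and -0.11 (OVX-EPC). By level, it held in the 4 classes up to 160 reads summed over the 6 libraries. Among the strongest members, with over 160 reads, the score was -0.59 and -0.58 (M-EPC), -0.70 and -0.83 (F-EPC), and -0.86 and -0.72 (OVX-EPC). There the direction was opposite, over 14 far and 71 near regions.

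This dependence on distance was not particular to isolated regions. In clustered intergenic regions of the F-EPC part the same score was -1.01 and -0.82 (M-EPC), -0.52 and -0.52 (F-EPC), and -0.55 and -0.66 (OVX-EPC). The score of isolated minus clustered regions was 0.25 and 0.25 (M-EPC) and 0.27 to 0.37 in the other libraries, so the difference between libraries from females and males was 0.06 larger in isolated regions (exact permutation test, two-sided, p = 0.133). In the autosomal regions of all other classes except promoters it was -0.81 and -0.59 (M-EPC) and -0.27 to -0.35 in the other libraries.

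Chromosomes differed in the same sense. Over all autosomes, the share of isolated-region reads on chromosome 1 was 7.99% and 8.35% (M-EPC) and 9.09% and 8.79% (OVX-EPC), a log2 ratio of group means of 0.13. Chromosomes 14, 12 and 3 followed with 0.12, 0.11 and 0.09. At the other end, chromosome 19 held 1.91% and 1.93% (M-EPC) and 1.69% and 1.72% (OVX-EPC), a log2 ratio of -0.17, and chromosome 11 had -0.11. The groups did not overlap on 13 of the 19 autosomes, higher in OVX-EPC on 5 and lower on 8. Some of these differences were small, with log2 ratios of -0.01 on chromosome 13 and 0.02 on chromosome 16. With so few libraries per group, some chromosomes can separate without a group difference, and no such count is given here for other regions. The shares of a library also add up to a whole, so higher shares on some chromosomes lower those on others. Chromosomes with more protein-coding genes per Mb had lower ratios, with Pearson r = -0.751 and Spearman rho = -0.830 over the 19 chromosomes. These points come from the same 4 libraries, and the correlation is a description. In the F-EPC part the log2 ratio of F-EPC to M-EPC was 0.09 on chromosome 1, 0.11 on chromosome 14 and -0.17 on chromosome 11. It was also -0.17 on the part of chromosome 16, with -0.18 for OVX-EPC there, although this chromosome has 6.76 protein-coding genes per Mb.

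**Figure D3:**
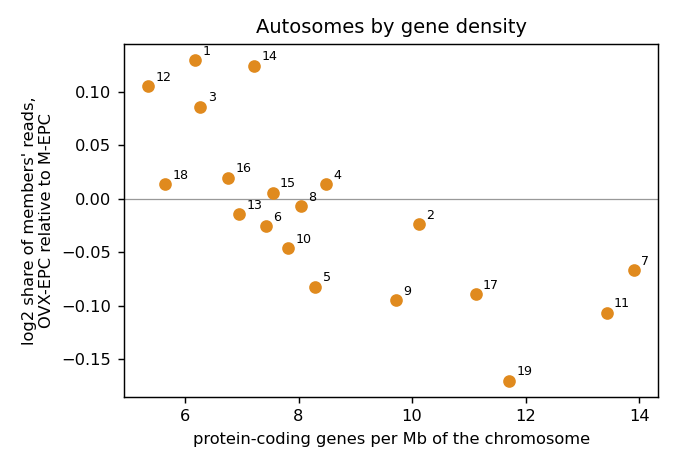
Log2 ratio of the OVX-EPC to the M-EPC mean share of isolated-region reads (vertical) against protein-coding genes per Mb (horizontal) for the 19 autosomes, each point labelled with its chromosome. Chromosomes 1, 12, 14 and 3, with 5.35 to 7.22 genes per Mb, lie highest, and chromosome 19 with 11.7 lies lowest.

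Repeat content went with a smaller difference. Members with over 90% soft-masked bases (1067 in the F-EPC part) took 6.47% and 6.67% of isolated-region reads in M-EPC, 7.65% and 7.59% (F-EPC), and 7.24% and 7.28% (OVX-EPC). Members with fewer than 50% single-copy words (2091) took 15.9% and 15.3% (M-EPC), 16.9% and 17.3% (F-EPC), and 16.1% and 17.2% (OVX-EPC). Both M-EPC libraries lay below the other 4 in both classes, and in the latter the nearest OVX-EPC library was close to M-EPC replicate 1. Members with under 10% soft-masked bases (2959) took 25.9% and 25.6% (M-EPC) and 24.5% to 25.3% in the other libraries. Reads of low mapping quality were removed by the study, which can lower the signal of repeats in all groups. By GC content the differences were small. The lowest quartile overlapped between groups, with 20.1% and 22.2% (M-EPC), 23.3% and 21.7% (F-EPC), and 23.1% and 22.1% (OVX-EPC). In the next quartile M-EPC lay just above the others, with 25.6% and 25.7% beside 25.3% and 25.4% (F-EPC) and 25.3% and 25.1% (OVX-EPC). The third quartile put M-EPC above OVX-EPC but not F-EPC, and in the highest all groups overlapped.

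Few single isolated regions passed the test between OVX-EPC and M-EPC. Of 25270 isolated regions, 4972 passed the filter of a normalized value of at least 10 in at least 2 of 4 libraries. Of these, 0 were higher and 18 were lower in OVX-EPC (limma, Benjamini-Hochberg adjusted p under 0.05), where 0.0473% and 0.402% of all regions tested were higher and lower. The 18 are 0.362% of the isolated regions tested, a share close to that of all regions. At an unadjusted p under 0.05, 367 isolated regions were higher and 452 lower, beside 5.07% higher and 11.1% lower of all regions tested, and the 2 directions together were 16.5% of the isolated and 16.1% of all regions tested. edgeR called 11 higher and 22 lower, including all 18, and DESeq2 called 1 each way. Without either M-EPC library or OVX-EPC replicate 1 the count was 0 and without OVX-EPC replicate 2 it was 4, and TMM scaling, which raised the median log2 fold change of all regions by 0.15, left 7. The 18 had a median TSS distance of 9937.5 bp, compared with 17620.5 bp for all isolated regions tested.

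The 3 regions ranked by this comparison that are described here lay on chromosome 7. At chr7:58882281-58882680, assigned to the predicted gene Gm6226 and 44084 bp from a TSS, M-EPC had 36 and 35 reads and OVX-EPC 8 and 8. This is a log2 fold change of -2.03 ± 0.34 (standard error; limma with Benjamini-Hochberg adjustment, adjusted p = 0.0015), with adjusted p of 0.0018 in edgeR and 0.252 in DESeq2. At chr7:82873324-82873723, 6190 bp from a TSS and assigned to Mex3b, which encodes an RNA-binding protein, the reads were 28 and 25 (M-EPC) and 2 and 6 (OVX-EPC), a change of -2.59 ± 0.46 (limma, Benjamini-Hochberg adjusted p = 0.0034). At chr7:144991789-144992188, 52063 bp from a TSS and assigned to Ccnd1, the gene of cyclin D1 of the cell cycle, the reads were 29 and 24 against 3 and 6, a change of -2.38 ± 0.43 (limma, Benjamini-Hochberg adjusted p = 0.0037). All 3 passed the filter through the M-EPC libraries and were named because the groups did not overlap, so their separation follows from the choice. Over the other settings the adjusted p ran up to 0.252 at Gm6226, 0.115 at Mex3b and 0.123 at Ccnd1, and DESeq2 gave none for the last pair. The F-EPC libraries were not used on this chromosome.

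Between F-EPC and M-EPC more isolated regions passed, again mostly lower, as among all regions tested. In the F-EPC part 2711 of 12433 isolated regions were tested, of which 5 were higher and 39 lower in F-EPC (limma, Benjamini-Hochberg adjusted p under 0.05). These are 0.184% and 1.44% of the isolated regions tested, close to the 0.172% higher and 1.62% lower of all regions tested. DESeq2 called 0 of them at its adjusted p, edgeR 14 higher and 31 lower, and TMM scaling left 0 higher and 7 lower, with a shift of 0.11 in the median of all regions. Without M-EPC replicate 1 the count was 0, and without M-EPC replicate 2 it was 56 higher and 19 lower, so the count and the direction of the calls rested on single M-EPC libraries. Without F-EPC replicate 1 or 2 it was 24 and 25, all lower.

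The region at chr12:32558770-32559169 near Ccdc71l, 71551 bp from a TSS, had 46 and 44 reads (M-EPC), 17 and 15 (F-EPC), and 17 and 22 (OVX-EPC). M-EPC lay above all other libraries, as the rule for naming this region required. The log2 fold change for F-EPC was -1.81 ± 0.30 (standard error; limma with Benjamini-Hochberg adjustment, adjusted p = 0.0026). At chr10:51540742-51541141 near Fam162b, 2094 bp from a TSS, the reads were 49 and 69 (M-EPC), 24 and 28 (F-EPC) and 16 and 30 (OVX-EPC). The change was -1.52 ± 0.27 for F-EPC and -1.38 ± 0.29 for OVX-EPC (limma, Benjamini-Hochberg adjusted p = 0.0047 and 0.0216). At chr13:44298757-44299156 near 1700029N11Rik the reads were 21 and 22 (M-EPC), 5 and 4 (F-EPC), and 2 and 9 (OVX-EPC), and the F-EPC change was -2.38 ± 0.42 (limma, Benjamini-Hochberg adjusted p = 0.0047). At chr1:39768359-39768758 near Gm3646 the reads were 19 and 26 (M-EPC), 6 and 2 (F-EPC), and 19 and 15 (OVX-EPC). F-EPC stood alone there, with a change of -2.68 ± 0.47 (limma, Benjamini-Hochberg adjusted p = 0.0046), and the OVX-EPC reads lay at or below those of M-EPC. In the test of F-EPC against M-EPC, the regions near 1700029N11Rik and Gm3646 passed the filter through the M-EPC libraries. All regions of this paragraph were named because F-EPC and M-EPC did not overlap, so that separation follows from the choice. For F-EPC their adjusted p in DESeq2 ran from 0.213 (Ccdc71l) to 0.527 (1700029N11Rik).

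Among the regions higher in F-EPC was chr1:144275901-144276300 near Rgs1, a regulator of G protein signalling in leukocytes, with 3 and 8 reads (M-EPC), 28 and 21 (F-EPC), and 13 and 14 (OVX-EPC). The change was 1.73 ± 0.42 for F-EPC (limma, Benjamini-Hochberg adjusted p = 0.035), and the OVX-EPC libraries lay between the other groups. At chr13:58458908-58459307 near Hnrnpk, the gene of an RNA-binding protein, the reads were 8 and 7 (M-EPC), 32 and 26 (F-EPC), and 15 and 12 (OVX-EPC), a change of 1.45 ± 0.36 for F-EPC (limma, Benjamini-Hochberg adjusted p = 0.0383). The regions near Gm23771 (3 and 10 against 25 and 29 reads) and Gm15568 (2 and 6 against 22 and 21 reads) showed changes of 1.73 ± 0.42 and 1.96 ± 0.48. The adjusted p of these 4 was 0.965 in DESeq2. All 4 passed the filter through the F-EPC libraries and were named because F-EPC and M-EPC did not overlap.

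When F-EPC and OVX-EPC were tested as 1 set against M-EPC, the calls went in both directions. Of 3013 isolated regions tested in all 6 libraries, 42 were higher and 65 lower in the libraries from females (limma, Benjamini-Hochberg adjusted p under 0.05). That is 1.39% and 2.16% of the isolated regions tested, compared with 1.09% higher and 2.69% lower of all regions tested. The split depended on scaling, as TMM gave 69 higher and 48 lower with a shift of 0.08 in the median. DESeq2 called 1, lower. Without M-EPC replicate 1 there were 14 higher and 3 lower, without M-EPC replicate 2 41 and 25, without the F-EPC replicates 9 and 31 or 5 and 27, and without OVX-EPC replicate 2 14 and 46. The higher regions had a median TSS distance of 33565 bp and the lower regions one of 13221 bp, beside 22252 bp for all isolated regions tested. Of the 42 higher regions 14 lay over 50 kb from a TSS and 4 within 10 kb, and of the 65 lower regions 3 and 26. Among all 3013 isolated regions tested these numbers were 785 and 830. The test statistics use the same reads as the distance bins, and these counts are no independent support.

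The highest-ranked of the regions that were higher in that comparison were weak in M-EPC. They passed the filter through the libraries from females and were named because the groups did not overlap, so this weakness follows from the choice. At chr15:37858870-37859269 near Rps19-ps5, a ribosomal protein pseudogene, the reads were 1 and 4 (M-EPC), 22 and 13 (F-EPC), and 11 and 21 (OVX-EPC), with a log2 fold change of 2.27 ± 0.45 (limma, Benjamini-Hochberg adjusted p = 3.4e-04). At chr15:18449168-18449567 near 4921515E04Rik they were 1 and 10, 24 and 18, and 15 and 17, a change of 1.88 ± 0.38. At chr1:101049675-101050074 near Gm20268, 105935 bp from a TSS, they were 1 and 4, 14 and 17, and 14 and 15, a change of 2.18 ± 0.47. In these regions M-EPC lay below all libraries from females, as the naming rule required, and the adjusted p in DESeq2 was 0.639 or more. At chr13:27446795-27447194 near Prl8a6, of the prolactin family expressed in placenta, M-EPC had 0 and 8 reads, F-EPC 18 and 13 and OVX-EPC 13 and 13. Among lower regions, chr11:105515744-105516143 near March10, of a ubiquitin ligase family, had 35 and 28 reads (M-EPC), 10 and 10 (F-EPC), and 14 and 16 (OVX-EPC), a change of -1.50 ± 0.32. The region near Gm24734 at chr11:89150581-89150980 had 19 and 27, 12 and 4, and 7 and 4. Fam162b and Ccdc71l were the first-ranked lower regions, with changes of -1.47 ± 0.25 and -1.52 ± 0.28, and Fam162b was the 1 region that DESeq2 called, with an adjusted p of 0.0492.

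**Figure D4:**
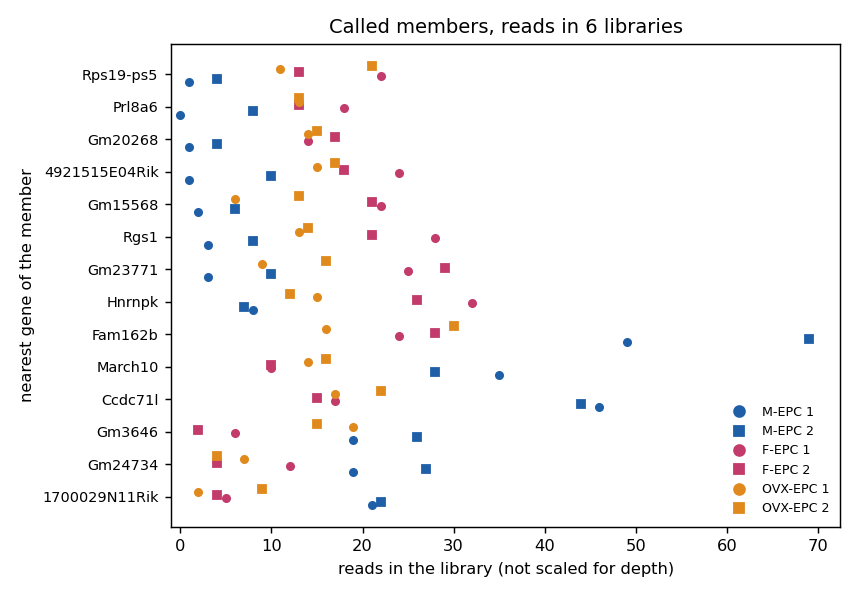
Reads in the 6 libraries (horizontal, not scaled for depth) at 14 isolated regions of the F-EPC part that were named from the comparisons with M-EPC, ordered by the change of F-EPC and OVX-EPC together. Regions were chosen for groups that do not overlap in at least 1 comparison. M-EPC points lie left of the others in the upper 8 rows and right of them in the lower 6, except that OVX-EPC replicate 1 meets M-EPC near Gm15568 (6 reads) and Gm3646 (19 reads) and lies between the M-EPC points near Gm23771.

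No isolated region passed the test between OVX-EPC and F-EPC. Of 2845 tested, 0 passed (limma, Benjamini-Hochberg adjusted p under 0.05), beside 0.0127% of all regions tested, and the smallest adjusted p was 0.768. At an unadjusted p under 0.05 there were 154, or 5.41% of the isolated regions tested, beside 6.22% of all regions tested. edgeR and DESeq2 also called 0. Without OVX-EPC replicate 2, 1 region was higher and 5 lower. A p that misses the threshold does not show that the groups are alike: the middle 90% of log2 fold changes ran from -0.80 to 0.78, and the median SE of a region was 0.41.

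None of the 6 strongest isolated regions passed the test (limma, Benjamini-Hochberg adjusted p under 0.05) in any comparison. The Gm5614 region at chr9:35305257-35305656, whose sequence is shown above, had 477 and 568 reads (M-EPC) and 632 and 577 (OVX-EPC), a log2 fold change of 0.20 ± 0.19 (limma, Benjamini-Hochberg adjusted p = 0.601). The Gm11668 region at chr11:109011725-109012124 had 454 and 493 reads (M-EPC), 643 and 624 (F-EPC), and 548 and 561 (OVX-EPC), with changes of 0.03 ± 0.10 and 0.22 ± 0.18 on the normalized scale. Next were chr3:5860468-5860867 near Gm25352, with 298 and 275 reads (M-EPC) and 300 and 332 (OVX-EPC), and chr15:75086610-75087009 near Gm28502, with 175 to 311 reads in a library. At chr4:3089991-3090390 near Vmn1r-ps2, a vomeronasal receptor pseudogene close to the centromeric end, the reads were 150 and 171 (M-EPC) and 248 and 262 (OVX-EPC), a change of 0.66 ± 0.20 (limma, Benjamini-Hochberg adjusted p = 0.148). That region passed in edgeR (adjusted p = 0.0274) and DESeq2 (adjusted p = 0.0192). The Zfp825 region at chr13:74529135-74529534 had 196 and 113 reads (M-EPC), 151 and 133 (F-EPC), and 92 and 120 (OVX-EPC), so the M-EPC replicates enclosed both F-EPC values. Strength was concentrated: the 253 strongest of the 25270 isolated regions held 7.90% of their reads in M-EPC and OVX-EPC.

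The mean level was lower in more isolated regions. Over all autosomes, the quartile of isolated regions with the nearest neighbours, 2001 to 7130 bp away, had means of 8.04 and 9.48 reads (M-EPC) and 8.55 and 9.72 (OVX-EPC). The quartile whose neighbours lay 26434 bp or more away had 4.97 and 6.48 (M-EPC) and 6.28 and 6.34 (OVX-EPC), and the quartiles between fell in order in all 4 libraries. The 3 most isolated regions were chr7:21243430-21243829 near Vmn1r124, 1320428 bp from the next region, chr7:32309168-32309567 near Scgb2b12, at 564566 bp, and chr4:82792965-82793364 near Zdhhc21, at 479738 bp. Their reads in M-EPC and OVX-EPC were 3, 4, 7 and 4 near Vmn1r124, 7, 4, 1 and 5 near Scgb2b12, and 11, 5, 7 and 6 near Zdhhc21. The first pair lay in repeated sequence, with 10.6% and 32.2% single-copy words, and none of the 3 passed the filter.

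By assigned gene, most isolated regions belonged to genes without an established name. Predicted genes (Gm numbers and Rik names) were the nearest gene of 14369 of 25270 isolated regions (56.9%), and in the F-EPC part these took 52.4% and 54.3% of isolated-region reads in M-EPC, 58.2% and 57.9% (F-EPC), and 57.7% and 56.9% (OVX-EPC). Their median TSS distance was 33296 bp. Olfactory and vomeronasal receptor genes, silent outside sensory neurons and known for heterochromatin marks over their clusters, were assigned 685 isolated regions. Over all autosomes these took 2.38% and 2.51% of isolated-region reads in M-EPC and 2.94% and 3.13% (OVX-EPC), and in the F-EPC part 1.27% and 1.37% (M-EPC), 1.47% and 1.46% (F-EPC) and 1.41% and 1.58% (OVX-EPC). M-EPC lay below the other groups in both. For OVX-EPC and M-EPC 0 of 127 such regions passed (limma, Benjamini-Hochberg adjusted p under 0.05), beside 0.0473% higher and 0.402% lower of all regions tested. At an unadjusted p under 0.05 there were 27 higher and 1 lower, beside 5.07% higher and 11.1% lower of all regions tested. edgeR called 2 and DESeq2 1 of 160 tested, all higher, and their shares over all regions are not given here. Their median distance to a TSS was 7944 bp, shorter than that of all isolated regions.

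Zinc finger genes (Zfp with a number), many of which encode KRAB repressors and are themselves known H3K9me3 targets, showed the opposite. They were assigned 187 isolated regions, which over all autosomes took 1.85% and 1.64% of isolated-region reads in M-EPC and 1.27% and 1.43% (OVX-EPC). In the F-EPC part 61 such regions took 1.37% and 1.10% (M-EPC), 0.791% and 0.834% (F-EPC), and 0.857% and 0.970% (OVX-EPC), so the M-EPC libraries lay above the others. Of 28 tested, 2 were lower in F-EPC than in M-EPC, where 1.62% of all regions tested were lower, and of 29 tested 1 was lower in F-EPC and OVX-EPC as 1 set, where it was 2.69% (limma, Benjamini-Hochberg adjusted p under 0.05). For OVX-EPC and M-EPC 0 of 82 passed in limma, edgeR or DESeq2, beside 0.402% lower of all regions tested in limma. At an unadjusted p under 0.05 limma had 1 higher and 13 lower, beside 5.07% higher and 11.1% lower of all regions tested. The zinc finger regions lay a median of 10430 bp from a TSS, compared with 25477.5 bp for all isolated regions. Isolated regions near a TSS took relatively more reads in M-EPC in general, and the part of distance here was not tested. For both gene groups these autosomal shares differed between OVX-EPC and M-EPC with p = 0.3333 by exact permutation, its lowest value here.

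Genes of angiogenesis and inflammation, in lists that hold genes named by the study and further genes of these processes, had few isolated regions. Of 15 angiogenic genes 8 had at least 1, with 26 regions in all, 9 of them assigned to Cdh5 (VE-cadherin of endothelial junctions) and 6 to Vegfa. Of the 13 inflammatory genes 4 had 19 regions in all, 10 of them assigned to Ifng (interferon gamma). Tek, Kdr, Nos3 and Ccl3 had 0. Of the 11 angiogenic and 5 inflammatory regions tested for OVX-EPC against M-EPC, 0 passed in limma (Benjamini-Hochberg adjusted p under 0.05), edgeR or DESeq2. In limma 0.0473% of all regions tested were higher and 0.402% lower. At an unadjusted p under 0.05 limma had 1 angiogenic region higher and 1 lower, and 1 inflammatory region lower, beside 5.07% higher and 11.1% lower of all regions tested. So few regions cannot show a departure from these shares. The strongest Vegfa region, chr17:45912141-45912540, had 50 and 39 reads (M-EPC) and 29 and 37 (OVX-EPC), a change of -0.43 ± 0.28, and the other 5 had 2 to 22 reads in a library. The regions assigned to Angpt1, a ligand of the Tek receptor, had 0 to 4 reads in a library, and no difference was detectable there at this depth. The 15 inflammatory regions of the F-EPC part summed to 83 and 127 reads (M-EPC), 124 and 78 (F-EPC), and 86 and 75 (OVX-EPC). As shares of isolated-region reads these were 0.124% and 0.149% in M-EPC against 0.0788% to 0.106% in the other libraries.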

How the data were processed

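H3K9me3 CUT&Tag libraries (2 each from M-EPC, F-EPC and OVX-EPC) were analysed from 3 deposited tables, each for a pair of groups. Per the study's methods the authors aligned 25-base paired-end reads to mm10 with Bowtie2, removed duplicates with Picard and reads of low mapping quality; MACS called the peaks. The submitters' processing notes name BWA and MACS2. The deposited signal values were whole reads divided by 1 factor per library and table; recovered to within 0.1 read, 100% were whole. The tables also hold the authors' fold changes and p-values, which were not used.

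Each pair was tested in its own table with limma (version 3.58.1, mean-variance trend) on log2(value + 1), over all regions with at least 10 in at least 2 of 4 libraries, with Benjamini-Hochberg adjustment over all regions tested. Such fold changes understate the change of weak regions. The contrast of F-EPC and OVX-EPC together used median-of-ratios factors over 23477 regions. edgeR (4.0.16) and DESeq2 (1.42.0) on recovered reads, other scalings, pseudocounts, filters, isolation distances and libraries left out served as alternatives. F-EPC was used only in the F-EPC part. Shares and ratios were compared by exact permutation tests, two-sided. Sequence features came from GRCm38, and TSS from GENCODE M21. The limma procedure was tested on simulated data. Reads in all regions ran from 288353 (F-EPC replicate 1, all of them in the F-EPC part) to 573821 (M-EPC replicate 2). Within the F-EPC part they ran from 200296 (M-EPC replicate 1) to 288353 (F-EPC replicate 1).

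The regions, gene lists and tests were chosen with earlier results of these data known. Named regions were up to 4 per direction and comparison with the smallest p and groups that did not overlap, the 6 strongest, the 3 most isolated, and those assigned to Ccl3, Angpt1, Kdr, Nos3, Tek or Vegfa. Not every region named by this rule is reported here. The comparisons against M-EPC share the M-EPC libraries.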

Additional observations from a re-analysis of the deposited data

Results flagged for a closer look

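F-EPC replicate 2 held 59760 reads in isolated regions outside the F-EPC part, in 6445 of 12837 such regions, where F-EPC replicate 1 held 0. These reads belong to no comparison of the report, because F-EPC had at most 1 library there, and they were flagged as signal in data that were not used.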

How the results depend on the processing

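Counts of isolated regions that passed depended strongly on the setting. For OVX-EPC against M-EPC (18) the count was 2 with DESeq2, 33 with edgeR, 7 with TMM factors, 9 and 29 with pseudocounts of 0.1 and 5, 34 with no filter, 28 with at least 30 in at least 2 libraries, 6 with no other region within 10000 bp, and 0 to 4 without 1 replicate. For F-EPC against M-EPC (44) it was 0 with DESeq2, 7 with TMM factors, 74 with a pseudocount of 5, 72 with no filter, 21 with no other region within 10000 bp, and 0 to 75 without 1 replicate. For OVX-EPC against F-EPC (0) it was 0 to 6 without 1 replicate. For both against M-EPC (107) it was 1 with DESeq2, 35 with at least 30 in at least 2 libraries, 47 with no other region within 10000 bp, and 17 to 79 without 1 replicate. Fewer regions enter the stricter filter and the wider isolation distance; for the other settings the cause was not tested.

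No pairing of the samples by replicate number was seen: same-numbered deviations correlated at -0.0470, -0.0127 and -0.0210 between groups. Sampling noise in regions with few reads lowers such correlations, so the check could miss a pairing. With the replicate block the counts were 25, 53, 0 and 74, and 0 changed by over 1.5 times. Removing the GC trend, added after seeing the data, gave 10 for OVX-EPC against M-EPC, and 35 with the replicate block as well.

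The median difference from other autosomal regions was -0.0405 for OVX-EPC relative to M-EPC and 0.0420 for F-EPC relative to M-EPC with at least 30 in at least 2 libraries, and without 1 replicate 0.14 to 0.25, 0.20 to 0.33 and, for OVX-EPC against F-EPC, -0.098 to -0.0201. Differences in share kept their direction in all alternatives run, but were smaller in some: 2.11 and 2.47 percentage points for OVX-EPC relative to M-EPC with only regions of at least 10 reads and with no other region within 10000 bp, and at that distance 2.70 for F-EPC relative to M-EPC and -0.72 for OVX-EPC relative to F-EPC. They were 2.55 to 5.199, 3.55 to 6.30 and -1.78 to -0.60 percentage points without 1 replicate. The level ratios were -0.59 to -0.54 and -0.89 to -0.76 without 1 replicate, where the smallest p with 5 libraries is 0.0625. With a median of 4 to 8 reads per isolated region and library, depth limits single regions most.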

Other observations

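A small set of isolated regions was rich in CpG, with GC content over 50% and an observed to expected CpG ratio over 0.6, as in CpG islands. They were 305 of 25270. Their mean was 14.4 and 14.7 reads (M-EPC) and 13.6 and 15.02 (OVX-EPC) over all autosomes, compared with 6.12 to 7.67 reads for the other isolated regions in these libraries. They took 2.79% and 2.29% of isolated-region reads in M-EPC and 2.27% and 2.34% (OVX-EPC). M-EPC replicate 1 stood apart from the other 3 libraries, and the groups were not separated from each other.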
